A study of Mus musculus with 6 samples.

Results

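The genes described here encode molecular chaperones, measured as messenger RNA in neuron-enriched cells of mouse dorsal root ganglia (DRG), where the somata of sensory neurons lie. The set holds 35 genes taken by name from a list of ER, cytosolic and mitochondrial chaperones, out of 54242 gene symbols in the table. By place and role they fall into 14 chaperones and folding enzymes of the endoplasmic reticulum (ER), 5 genes of ER degradation, signalling and translocation, 14 cytosolic chaperones and cochaperones and 2 mitochondrial chaperonins. Members of this set are called chaperones below for short, though not every one is a chaperone. All 35 had a mean level of 1 TPM or more and could be tested, as could 15097 genes in all. One group had followed 10 days of intermittent fasting (called fasted, 3 libraries), and the control group had eaten ad libitum (called fed, 3 libraries). Every animal was a male C57bl/6 mouse of 8 to 10 weeks with no transgene named in the labels, and L4-6 ganglia were used. The labels add that mice were killed after 24 hours without saying what that time follows, and they do not give the hours of feeding, the time of day or whether a library is 1 animal or a pool. Nothing says that the libraries came from separate animals, so the spread behind each p-value may be partly technical.

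Chaperones bind proteins that are unfolded or being folded and keep them from aggregating. In the ER lumen, Hsp70 and Hsp90 family members work beside lectin chaperones and disulfide isomerases on secreted and membrane proteins, which sensory neurons make in quantity for their long axons. When unfolded protein builds up there, the unfolded protein response raises many of these genes together through the factors ATF6, XBP1 and ATF4, and many of the promoters carry a sequence called the ER stress response element. In the cytosol and nucleus, heat shock factor 1 (HSF1) raises Hsp70, Hsp40, Hsp90 and small heat shock genes through heat shock elements. Before RNA was taken, all ganglia of both groups were digested with dispase, collagenase and papain and the cells were enriched for neurons in a BSA gradient.

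Values are TPM, a share of all transcripts in a library corrected for transcript length, so levels can be set beside each other between genes. TPM carries no sequencing depth, and no counting interval can be given. The 6 libraries were alike, with Spearman correlations across genes of 0.983 to 0.992, and no 2 libraries were identical. The 17 sensory neuron markers summed to 26419 to 27553 TPM in fasted and 25031 to 27309 TPM in fed libraries, and 15 of the 17 were higher in fasted libraries, also under the 4 other scalings tried. Satellite glia and Schwann cell markers (14 genes, 6 higher and 8 lower in fasted libraries) summed to 14036 to 14949 TPM in fasted and 13739 to 14932 TPM in fed libraries. Macrophage markers were lower in fasted libraries for 15 of 15 genes (sums of 125 to 146 TPM in fasted against 172 to 205 TPM in fed libraries), and endothelial markers for 11 of 12 (212 to 233 TPM in fasted against 248 to 295 TPM in fed libraries). The 6 erythrocyte markers, all higher in fasted libraries, summed to 1716 to 3281 TPM in fasted and 1285 to 1565 TPM in fed libraries. The 15 skeletal muscle markers summed to 294 to 626 TPM in fasted libraries and to 559.7, 4902 and 709 TPM in fed libraries 1, 2 and 3, so fed library 2 stood apart; all 15 were lower in fasted libraries. The 9 fibroblast markers (5 higher and 4 lower in fasted libraries) summed to 1722 to 1879.5 TPM in fasted and 1919.6 to 1989 TPM in fed libraries, and the 9 pericyte and smooth muscle markers to 148 to 192 TPM in fasted and 182 to 216 TPM in fed libraries, with 9 of 9 of these lower in fasted libraries on TPM. None of these marker genes was listed at 0 in all 6 libraries, and the part of other cells in the chaperone differences was not tested.

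Transcripts of the 35 genes, which are a part of the folding machinery, made up 1.30% of all TPM in these neuron-enriched preparations, at a similar level under both diets. The 35 genes together held 12939, 12720.4 and 13215 TPM in fasted libraries 1, 2 and 3, against 13515, 12373 and 13005 TPM in the fed ones. Cytosolic members made up 79.6% of that sum, the ER folding group 14.7%, the mitochondrial pair 3.79% and the 5 ER degradation and signalling genes 1.89%. Hspa8 (the constitutive Hsp70, also called Hsc70), Hsp90ab1 (HSP90 beta) and Hsp90aa1 (HSP90 alpha) alone supplied 59.1%. Hspa8 was the gene of rank 18 by mean TPM among all symbols, at 3735, 3728 and 4156 TPM in fasted against 3960.2, 3444 and 3966 TPM in fed libraries. At the other end were the stress-inducible Hsp70 genes Hspa1a and Hspa1b, at means of 8.58 and 16.1 TPM over the 6 libraries, and Creld2 and Edem1 at 12.9 and 14.2 TPM. Within groups the log2 values of the members had a median SD of 0.058, against 0.087 over all genes tested. These SDs were not matched for level, as 19 members averaged 100 TPM or more while the genes tested reached down to 1 TPM.

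**Figure D1:**
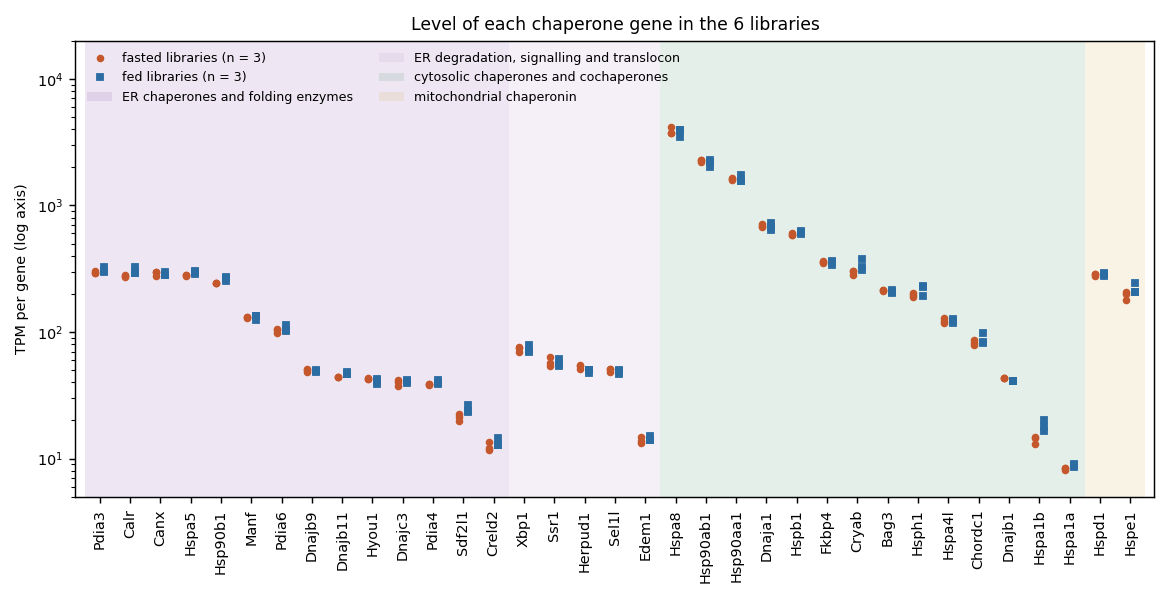
TPM of each of the 35 genes in each library on a log axis, fasted libraries as circles left of fed libraries as squares, with shading for the 4 groups of genes. Levels run from about 8.58 TPM for Hspa1a to 3831 TPM for Hspa8 (means of 6 libraries), and the diets lie close together for each gene on this scale.

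The fasted libraries had slightly less of most ER luminal folding genes. Of the 14, 10 had lower and 4 higher mean levels in fasted libraries. Their median log2 fold change, fasted over fed, was -0.060, while the median of all 15097 genes was 0.031. In 6 of the 14 (42.9%) every fasted library lay below every fed library, which held for 5.07% of all genes tested. Wholly above lay 1 (7.14%), against 12.7% of all genes. The members were chosen with earlier results of these data known, so these counts describe the set and are not a test. At an unadjusted p under 0.05, 4 of the 14 were lower and 0 higher, and of all genes 3.22% were lower and 6.72% higher. No chaperone passed an adjusted p of 0.05 (limma with Benjamini-Hochberg adjustment over all genes), where 1 gene of 15097 (0.00662%) did, and the smallest adjusted p among the 35 was 0.42 in limma. By median-of-ratios scaling, 8 of the 14 lay wholly below and 0 wholly above, and of all genes 7.23% and 8.46% did. Under that and 3 other scalings (TMM-type, quantile, and without mitochondrially encoded genes) 13 of the 14 were lower, with medians of -0.095 to -0.084, and 5 to 6 were lower at an unadjusted p under 0.05. Under these 4 scalings 6846 to 7571 of all genes tested (15095 to 15236) were lower. At an unadjusted p under 0.05 in limma, 650 to 756 of all genes were lower. Fed library 1 was the highest of the 6 libraries in 10 of these 14 genes, and without it the median was -0.027. Leaving out a library cannot make separated groups overlap, so the 6 genes wholly below had to stay so. Over all 35 genes, 1 was higher and 6 were lower at an unadjusted p under 0.05, and the lower ones numbered 2 when fasted library 1 or 2 was left out and 3 when fasted library 3 or fed library 1 was. Of all 15097 genes, 486 were lower at that threshold with all libraries and 382 to 542 without one of these. In bulk RNA, fewer cells of a type and less RNA per cell cannot be told apart.

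Many ER chaperone genes share a promoter element, shown here because most ER folding genes were lower in fasted libraries. RefSeq promoters (build GRCm38.p6), from 250 bases before to 50 bases after the gene start, were found for 29 of the 35 genes; Hyou1, Manf, Hspa8, Hsp90aa1, Hsp90ab1 and Cryab had no entry. They were searched on both strands for the ER stress response element (ERSE, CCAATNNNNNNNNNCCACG), its second form (ERSE-II, ATTGGNCCACG), the UPRE core bound by XBP1 and ATF6 (TGACGTG), and a heat shock element of 3 alternating units (HSE, GAANNTTCNNGAA). No motif contains another, though both ERSE forms end in CCACG. The promoter of Hspa5 (chr2:34771840-34772139, plus strand) is printed whole, 5′ to 3′, with its ERSE in capitals.
Hspa5: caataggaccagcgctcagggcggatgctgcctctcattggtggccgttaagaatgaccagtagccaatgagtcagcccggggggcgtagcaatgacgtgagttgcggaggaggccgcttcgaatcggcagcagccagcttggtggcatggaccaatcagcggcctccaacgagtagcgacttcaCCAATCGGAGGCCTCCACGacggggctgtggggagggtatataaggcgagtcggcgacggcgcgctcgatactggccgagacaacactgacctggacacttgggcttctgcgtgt

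The remaining ERSE matches are given with 10 bases on each side (same build), read 5′ to 3′ on the strand of the match, with the motif in capitals, so that their variable spacers can be compared. Hsp90b1 holds 2 (chr10:86705628-86705666, minus strand, and chr10:86705523-86705561, plus strand). Calr (chr8:84847065-84847103, plus strand), Dnajc3 (chr14:118937817-118937855, plus strand), Pdia6 (chr12:17266481-17266519, plus strand), Canx (chr11:50325790-50325828, minus strand) and Creld2 (chr15:88819510-88819548, minus strand) hold 1 each.
Hsp90b1, first: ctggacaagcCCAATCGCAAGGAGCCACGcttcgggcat
Hsp90b1, second: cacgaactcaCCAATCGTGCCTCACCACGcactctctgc
Calr: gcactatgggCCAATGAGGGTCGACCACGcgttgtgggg
Dnajc3: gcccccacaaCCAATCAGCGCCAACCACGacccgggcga
Pdia6: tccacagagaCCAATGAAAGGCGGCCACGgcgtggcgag
Canx: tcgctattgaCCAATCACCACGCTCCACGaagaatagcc
Creld2: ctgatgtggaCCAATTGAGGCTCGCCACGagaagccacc

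The exact ERSE occurred in 7 of 12 ER folding genes with a promoter, in 0 of 5 other ER genes, in 0 of 10 cytosolic and in 0 of 2 mitochondrial ones, and in 39 of all 32851 promoters (0.119%). Of the 6 ER folding genes wholly lower in fasted libraries, 3 held it (Hspa5, Hsp90b1 and Calr), and of the other 6 with a promoter, 4 did (Dnajc3, Pdia6, Canx and Creld2). Genes with and without the element stood in both groups. ERSE-II, in 0.0365% of all promoters, was found in Dnajb11 (chr16:22857842-22857872, plus strand), wholly lower, and in Herpud1 (chr8:94386367-94386397, plus strand), wholly higher. The UPRE core (2.01% of all promoters) was found in Hspa5 alone among the 29.
Dnajb11, ERSE-II: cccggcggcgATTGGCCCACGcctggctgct
Herpud1, ERSE-II: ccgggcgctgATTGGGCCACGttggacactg

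Hsp90b1 encodes GRP94, the Hsp90 of the ER lumen (chromosome 10, 86690209 to 86705509, GRCm38). It was at 242.8, 243.5 and 243.4 TPM in fasted libraries 1, 2 and 3, against 272, 267 and 254 TPM in the fed libraries. The fasted values lay within 1 TPM of each other and below all fed values (log2 fold change -0.12 with a standard error of 0.037, adjusted p = 0.48 in limma). Leaving out each library in turn gave log2 fold changes of -0.15 to -0.10.

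Hspa5 encodes BiP or GRP78, the ER Hsp70 that also holds the stress sensors inactive (chromosome 2, 34771970 to 34777547). Its level was 278, 283 and 284 TPM in fasted against 303, 287 and 299 TPM in fed libraries. The groups did not overlap, but the nearest fasted and fed libraries were close together (log2 fold change -0.072 with a standard error of 0.036, adjusted p = 0.52 in limma). Dnajb11 (ERdj3) is an ER Hsp40 that brings substrates to BiP, and was at 43.9, 44.01 and 44.1 TPM in fasted against 47.9, 46.5 and 46.6 TPM in fed libraries (log2 fold change -0.093 with a standard error of 0.037, adjusted p = 0.50 in limma). Sdf2l1, a small ER protein that works in a complex with ERdj3, was at 21.2, 19.9 and 22.6 TPM in fasted and 26.4, 23.7 and 23.4 TPM in fed libraries. It had the largest difference in means of the ER folding group (-13.3%; log2 fold change -0.20 with a standard error of 0.069, adjusted p = 0.48 in limma).

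The other partners of BiP had values on both sides. Hyou1 (ORP150 or GRP170, a large Hsp70 relative that exchanges nucleotide on BiP) was the one ER folding gene lying wholly above, at 42.15, 42.49 and 43.0 TPM in fasted and 42.13, 38.54 and 40.78 TPM in fed libraries (log2 fold change 0.071 with a standard error of 0.045, adjusted p = 0.57 in limma). The gap between fasted library 1 and fed library 1 was small, the groups overlapped under the 4 other scalings, and without fed library 2, the lowest, the log2 fold change was 0.037. Dnajb9 (ERdj4, which helps BiP repress the sensor IRE1) was at 49.8, 48.4 and 50.8 TPM in fasted against 49.7, 48.8 and 48.3 TPM in fed libraries. Dnajc3 (p58IPK, an inhibitor of the kinase PERK and an ER cochaperone) was at 37.6, 40.5 and 41.5 TPM in fasted against 41.4, 39.3 and 41.02 TPM in fed libraries. Both overlapped between diets, with 95% intervals of the log2 fold change from -0.069 to 0.11 and from -0.14 to 0.091.

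Lectin chaperones hold glycoproteins during folding, 1 in the lumen and 1 in the membrane. Calr (calreticulin, the soluble one, chromosome 8, 84841850 to 84846934) was at 279, 281 and 273 TPM in fasted against 324, 292 and 290.0 TPM in fed libraries (log2 fold change -0.12 with a standard error of 0.050, adjusted p = 0.50 in limma). The groups did not overlap, and fed library 1 was well above the others; without it the log2 fold change was -0.067. Canx (calnexin, the membrane-bound one) was at 298, 279 and 295 TPM in fasted and 300.4, 281 and 282 TPM in fed libraries, and the groups overlapped (95% interval -0.089 to 0.12). Whether the difference in Calr was unlike that in Canx was not tested.

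Protein disulfide isomerases form and rearrange disulfide bonds. Pdia4 (ERp72) lay wholly lower in fasted libraries by a narrow margin, at 38.6, 38.6 and 38.2 TPM in fasted against 41.7, 39.4 and 38.7 TPM in fed libraries (log2 fold change -0.053 with a standard error of 0.043, adjusted p = 0.65 in limma), and its log2 fold change was -0.022 without fed library 1. Pdia3 (ERp57, the partner of calreticulin and calnexin) was at 291, 292 and 300.5 TPM in fasted and 324, 299.7 and 302 TPM in fed libraries, where fasted library 3 lay among the fed values. Pdia6 (P5, which limits IRE1 activity) was at 98.3, 103 and 105 TPM in fasted against 113, 102 and 103 TPM in fed libraries, and its fold change rested on fed library 1, at -0.0031 without that library. Creld2, an ER protein with isomerase activity that ER stress induces, was at 11.7, 12.1 and 13.5 TPM in fasted against 12.9, 14.6 and 12.8 TPM in fed libraries. Manf, a small secreted ER protein with neurotrophic activity, had equal means of 131 ± 0.642 TPM in fasted and 131 ± 4.86 TPM in fed libraries (SD, n = 3 each).

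**Figure D2:**
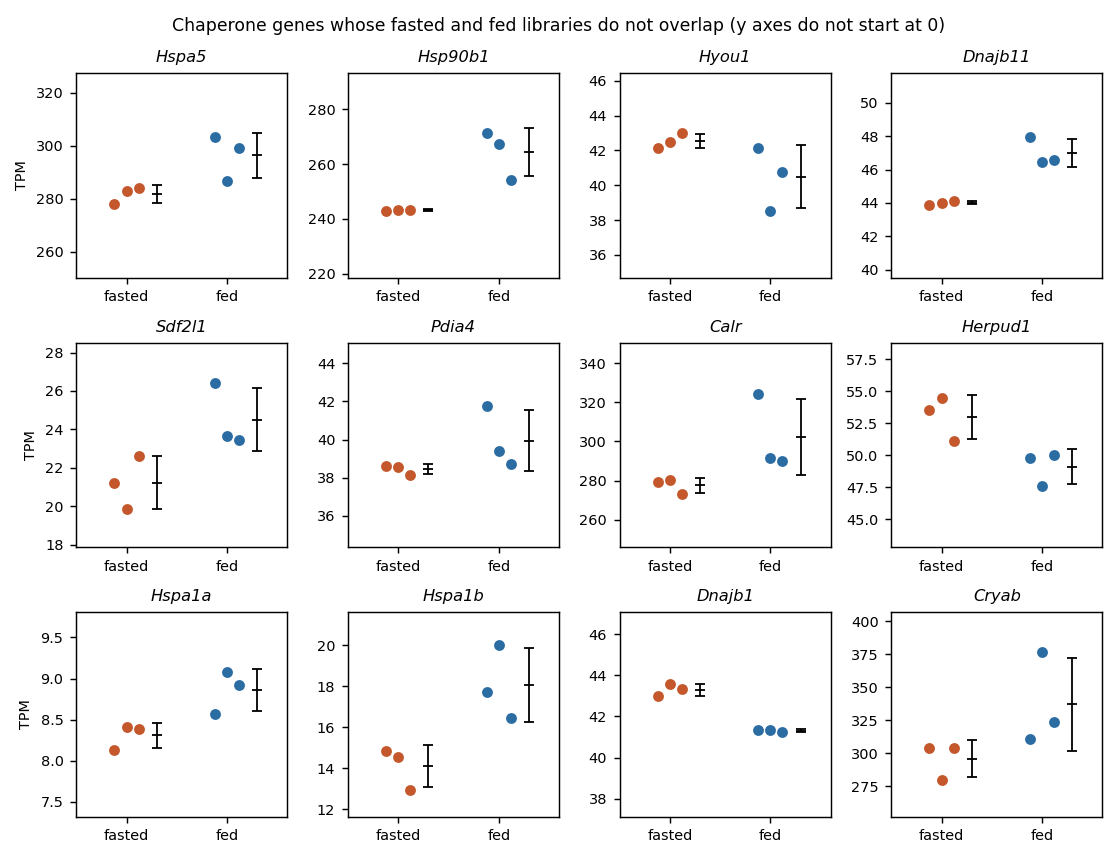
TPM in each library for the 12 chaperone genes whose groups did not overlap; coloured points are libraries, fasted left and fed right, and the black mark is the mean with its SD (n = 3). The fasted points lie below in 9 panels (Hsp90b1 at 243 TPM in fasted against 254 to 272 TPM in fed libraries, for example) and Hyou1, Herpud1 and Dnajb1 have them above; the y axes do not start at 0.

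The 5 ER members outside the folding group were mostly at or slightly above the fed level on TPM, with 4 higher and 1 lower and a median of 0.016, and 2 higher and 3 lower under the 4 other scalings. Herpud1, a membrane protein that organises the ER degradation complex (chromosome 8, 94386438 to 94395377), lay wholly higher, at 53.5, 54.4 and 51.1 TPM in fasted and 49.8, 47.6 and 49.99 TPM in fed libraries (log2 fold change 0.11 with a standard error of 0.043, adjusted p = 0.50 in limma). It was the 1 member of the 35 higher at an unadjusted p under 0.05. It was not under the 4 other scalings, with no intensity trend, with a replicate block, or without fasted library 1 or 2 or fed library 1 or 2. Sel1l, the adaptor of the same complex, was at 48.1, 50.6 and 51.3 TPM in fasted against 48.8, 46.9 and 50.2 TPM in fed libraries, and Edem1, which hands misfolded glycoproteins to it, at 13.3, 13.9 and 14.8 TPM in fasted against 13.99, 14.01 and 14.96 TPM in fed libraries. Xbp1, the transcription factor made active by IRE1 splicing, was at 69.2, 74.7 and 75.6 TPM in fasted against 78.3, 70.1 and 68.8 TPM in fed libraries, and Ssr1, a subunit of the translocon-associated protein complex, at 57.03, 53.7 and 63.1 TPM in fasted against 56.7, 54.04 and 61.1 TPM in fed libraries. These 4 overlapped between the diets, with the widest 95% interval for Ssr1, from -0.15 to 0.18. The spliced form of Xbp1 was not analysed here.

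Cytosolic chaperones divided evenly on TPM, with 7 of 14 higher and 7 lower in fasted libraries and a median of 0.0015 on the log2 scale. Lying wholly lower were 3 (21.4%) and wholly higher 1 (7.14%), where 5.07% and 12.7% of all genes were. Under the 4 other scalings 2 to 4 were higher and the median lay between -0.034 and -0.023. Without single libraries it ran from -0.033 (without fed library 2) to 0.039 (without fed library 1).

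Hspa1b, one of the pair of adjacent stress-inducible Hsp70 genes (chromosome 17, 34956436 to 34959238), had the largest fold change of the 35. It was at 14.9, 14.6 and 12.9 TPM in fasted and 17.7, 19.998 and 16.4 TPM in fed libraries, with no overlap (log2 fold change -0.33 with a standard error of 0.086, adjusted p = 0.42 in limma). Without each library in turn the log2 fold change ran from -0.39 to -0.26, nearest to 0 without fed library 2. Its neighbour Hspa1a (chromosome 17, 34969190 to 34972156) was at 8.13, 8.41 and 8.38 TPM in fasted and 8.57, 9.08 and 8.93 TPM in fed libraries, lower without overlap but by little (log2 fold change -0.082 with a standard error of 0.061, adjusted p = 0.63 in limma). The 2 transcripts are near copies. Of the 31-base words in the annotated Hspa1b transcript, 67.6% also occur in Hspa1a, and the 300-base promoters differ at 4 bases, so the split of reads between the pair is uncertain. With all 187 genes that share a word with Hspa1b counted, which summed to 2781 TPM, the shared part was 68%.

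The abundant cytosolic machines overlapped between the diets. Hspa8 had a 95% interval of the log2 fold change from -0.14 to 0.21. Hsp90aa1 was at 1642, 1579 and 1609 TPM in fasted and 1747, 1547 and 1563 TPM in fed libraries, and Hsp90ab1 at 2293, 2276 and 2221 TPM in fasted against 2282, 2029 and 2206 TPM in fed libraries. Fed library 2 was the lowest of the 6 for Hspa8 and for both Hsp90 genes. Dnaja1, an Hsp40 partner of Hspa8, was at 709, 679 and 685 TPM in fasted against 719, 643 and 681 TPM in fed libraries. For Fkbp4 (FKBP52, an Hsp90 cochaperone of steroid receptors) the means were 358 ± 7.45 TPM in fasted and 353 ± 11.4 TPM in fed libraries, for Hspa4l (an Hsp110 relative) 123 ± 5.95 TPM (fasted) and 123 ± 4.06 TPM (fed), and for Bag3 (which links Hsp70 to autophagy) 214 ± 2.03 TPM (fasted) and 209 ± 5.50 TPM (fed) (SD, n = 3 each). Sequence shared with other annotated genes ranged from 51.4% of the 31-base words of Hsp90aa1 and 43.5% of those of Hspa8 to 13.4% for Dnaja1, 13.2% for Hsp90ab1, 2.94% for Fkbp4, 0.638% for Hspa4l and 0% for Bag3. The genes that share words with Hspa8 summed to 30.5 TPM over the 6 libraries on average. Those that share words with Hsp90aa1 summed to 2596 TPM, most of it Hsp90ab1 at 2218 TPM. For Hsp90ab1 the sum was 1616 TPM, nearly all of it Hsp90aa1.

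Dnajb1 (Hsp40, the inducible partner of Hsp70) had the tightest replicates of the members, at 42.98, 43.6 and 43.3 TPM in fasted and 41.3, 41.4 and 41.3 TPM in fed libraries (log2 fold change 0.066 with a standard error of 0.036, adjusted p = 0.53 in limma). Fasted libraries were wholly higher, opposite to its partner Hspa1b, and the difference between the 2 genes was not tested. The 3 wholly higher chaperones were Hyou1, Herpud1 and Dnajb1. Of these, 2 stayed so under median-of-ratios and TMM-type scaling, 1 without mitochondrially encoded genes and 0 under quantile normalization. Under those scalings 1137 to 1315 of all genes tested (15095 to 15236) were wholly higher. Without fed library 1, 6 chaperones were wholly higher. So were 3300 of all 15097 genes, against 1922 with all 6 libraries. Hsph1 (HSP105, which exchanges nucleotide on Hsp70) was at 202, 189 and 196 TPM in fasted and 229, 229 and 194 TPM in fed libraries, where fed library 3 lay among the fasted values. Chordc1 (CHP-1 or morgana, an Hsp90 cochaperone) was at 78.8, 81.5 and 85.8 TPM in fasted against 97.5, 82.4 and 82.9 TPM in fed libraries, and only fed library 1 stood clear of the rest.

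Small heat shock proteins hold unfolded chains without ATP. Cryab (alpha B-crystallin, chromosome 9, 50751325 to 50756636), made in muscle and in glia as well as in neurons, was at 304, 280.0 and 304 TPM in fasted and 311, 377 and 324 TPM in fed libraries, with no overlap (log2 fold change -0.18 with a standard error of 0.075, adjusted p = 0.50 in limma). Its highest value was in fed library 2, which held 4902 TPM of skeletal muscle markers against 294 to 709 TPM in the other 5, and without that library the log2 fold change was -0.10. The part of muscle RNA in this difference was not tested beyond that. Hspb1 (HSP27, abundant in sensory neurons) was at 608, 583 and 584 TPM in fasted and 616, 623 and 592 TPM in fed libraries and overlapped, and 52.3% of its 31-base words occur in 1 annotated pseudogene listed at 0.152 TPM on average.

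The mitochondrial chaperonin is a barrel of HSP60 (Hspd1) closed by a lid of HSP10 (Hspe1), whose genes sit head to head (chromosome 1, 55077835 to 55088243 and chromosome 1, 55088132 to 55091307). Hspd1 was at 287, 277 and 285 TPM in fasted and 294, 287 and 277 TPM in fed libraries. Hspe1 was at 208, 199 and 178 TPM in fasted against 206, 243 and 206 TPM in fed libraries (log2 fold change -0.16 with a standard error of 0.082, adjusted p = 0.52 in limma). Both overlapped between diets. Fed library 2 was the highest for Hspe1, and without it the log2 fold change was -0.083.

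The heat shock element, in 0.603% of all promoters, was found in 2 of 10 cytosolic members, Hsph1 (chr5:149636287-149636310, plus strand) and Chordc1 (overlapping matches, the first at chr9:18292253-18292285, plus strand), and in the mitochondrial Hspe1 (chr1:55088054-55088086, plus strand). All 3 had lower means in fasted libraries with groups that overlapped, with log2 fold changes of -0.15, -0.090 and -0.16. Of the genes without a match, Hspa1a (-0.082), Hspa1b (-0.33), Hspb1 (-0.045) and Hspd1 (-0.017) were lower too. The others searched, Bag3, Dnaja1, Dnajb1, Fkbp4 and Hspa4l, were higher on TPM. Only these exact letters were searched, so the lack of a match does not mean that a gene lacks the element. A match is a description of letters, and binding was not measured.
Hsph1: aGAACTTTCCAGAAtctgcagcat
Chordc1, first: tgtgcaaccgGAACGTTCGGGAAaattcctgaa
Hspe1: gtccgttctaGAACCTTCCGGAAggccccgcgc

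**Figure D3:**
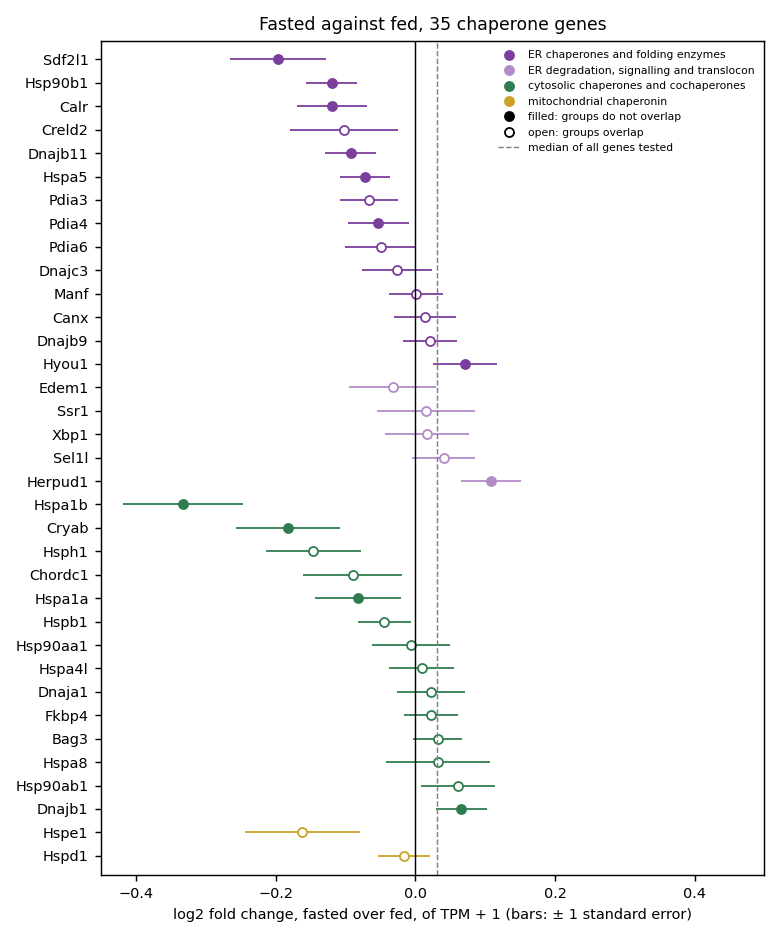
Log2 fold change of TPM + 1, fasted over fed, for each gene with 1 standard error either way (limma, n = 3 libraries per group), grouped and coloured by role; filled points mark genes whose groups did not overlap, and the dashed line is the median of all genes tested, 0.031. Of the 14 ER folding genes, 10 lie left of 0, from -0.20 for Sdf2l1, and Hspa1b lies farthest left at -0.33.

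The ER set was then compared with the cytosolic and mitochondrial sets. Over all 19 ER members the median log2 fold change was -0.032, with 6 (31.6%) wholly lower and 2 (10.5%) wholly higher. Over the 16 cytosolic and mitochondrial members it was -0.011, with 3 (18.8%) wholly lower and 1 (6.25%) wholly higher. Of all genes tested, 5.07% were wholly lower and 12.7% wholly higher. The ER median was -0.0053 without fasted library 1, -0.013 without fed library 1 and -0.019 without fed library 3. The median of ER members minus that of cytosolic members was -0.034, and it was 0.0032 without fasted library 1, -0.0074 without fed library 3, -0.014 without fed library 2, -0.052 without fed library 1 and -0.060 without fasted library 2. The mitochondrial median was -0.089, and -0.049 without fed library 2. Within each library, the mean centred log2 level of ER members minus that of cytosolic members was -0.028, 0.017 and 0.028 in fasted libraries 1, 2 and 3, and -0.0036, -0.027 and 0.013 in the fed libraries. The groups overlapped, and fasted library 1 was at one end and fasted library 3 at the other. For the ER folding group alone minus the cytosolic one, the values were -0.032, 0.0039 and 0.012 in fasted libraries against 0.016, -0.0095 and 0.010 in fed libraries, and these overlapped too. The mitochondrial pair minus the cytosolic set was 0.026, 0.00040 and -0.092 in fasted libraries and -0.036, 0.11 and -0.012 in fed ones. No separation of ER from cytosolic chaperones by diet was detectable in these libraries.

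**Figure D4:**
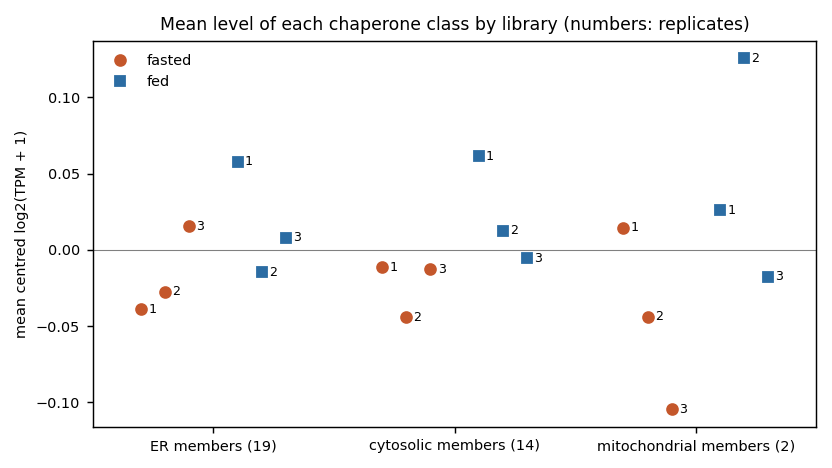
Mean centred log2(TPM + 1) of the 19 ER, 14 cytosolic and 2 mitochondrial members in each library; numbers beside the points are replicates, circles are fasted and squares fed libraries. Fed library 1 is highest for ER (0.058) and cytosolic members (0.062), and fed library 2 for the mitochondrial pair (0.13).

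Since the table is per transcript, the sums above were taken apart. The 35 genes have 172 transcripts in the table, 97 of them with a mean of at least 1 TPM, and 19 genes have 2 or more transcripts that each hold at least 5% of the gene. None of the 97 passed an adjusted p of 0.05 (limma, over 33197 transcripts, of which 0.0271% passed), and the smallest adjusted p was 0.61. Wholly lower in fasted libraries were 15 and wholly higher 6, where 4.98% and 9.38% of all transcripts were. At an unadjusted p under 0.05 there were 14 lower and 3 higher, against 2.71% and 4.49% of all transcripts. How much sequence tells transcripts of 1 gene apart varied widely. The share of 31-base words found in no other transcript of the gene was 85.5% for Chordc1-201 and 90.6% for Ssr1-201, but 1.41% for Hyou1-201 and 0.935% for Hsph1-201.

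In Manf the main transcripts differed in opposite directions under equal gene sums. Manf-201, protein coding and 960 bases long, was at 47.6, 49.1 and 46.5 TPM in fasted against 55.8, 53.3 and 56.4 TPM in fed libraries (log2 fold change -0.20 with a standard error of 0.042, adjusted p = 0.61 in limma). Manf-205, a transcript of 502 bases annotated as a retained intron, was at 71.2, 67.4 and 68.96 TPM in fasted against 63.8, 59.7 and 63.8 TPM in fed libraries (log2 fold change 0.15 with a standard error of 0.044, adjusted p = 0.67 in limma). As a share of the gene, Manf-201 was 36.4, 37.8 and 35.5% in fasted and 41.8, 42.7 and 42.3% in fed libraries, and Manf-205 was 54.4, 51.9 and 52.6% in fasted and 47.8, 47.8 and 47.9% in fed libraries. Neither share overlapped between diets. Of the 31-base words of these transcripts, 23.1% for Manf-201 and 27.3% for Manf-205 occur in no other Manf transcript.

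In Hspa5 more of the lower sum lay in Hspa5-204 than in the coding transcript. Hspa5-204 is a 477-base transcript annotated as a target of nonsense-mediated decay. It was at 61.6, 62.6 and 59.9 TPM in fasted and 70.2, 67.9 and 72.5 TPM in fed libraries, with no overlap (log2 fold change -0.19 with a standard error of 0.041, adjusted p = 0.61 in limma). The full coding transcript Hspa5-202 was at 207, 209.8 and 215 TPM in fasted and 222, 210.0 and 217 TPM in fed libraries, which overlapped (log2 fold change -0.037 with a standard error of 0.035, adjusted p = 0.81 in limma). For Pdia3, the 722-base decay-annotated transcript Pdia3-203 was at 21.7, 26.5 and 34.6 TPM in fasted against 44.6, 41.7 and 43.7 TPM in fed libraries (log2 fold change -0.66 with a standard error of 0.16, adjusted p = 0.61 in limma), while the coding Pdia3-201 was at 268, 266 and 266 TPM in fasted against 279, 258 and 258 TPM in fed libraries. Pdia3-203 spread widely among the fasted libraries and stayed below all fed values. Only 36 words of Hspa5-204 and 30 of Pdia3-203 are not in another transcript of the gene, so both levels are uncertain. With the most abundant transcript of each gene alone in place of the sum, 7 of the 9 wholly lower members stayed so.

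**Figure D5:**
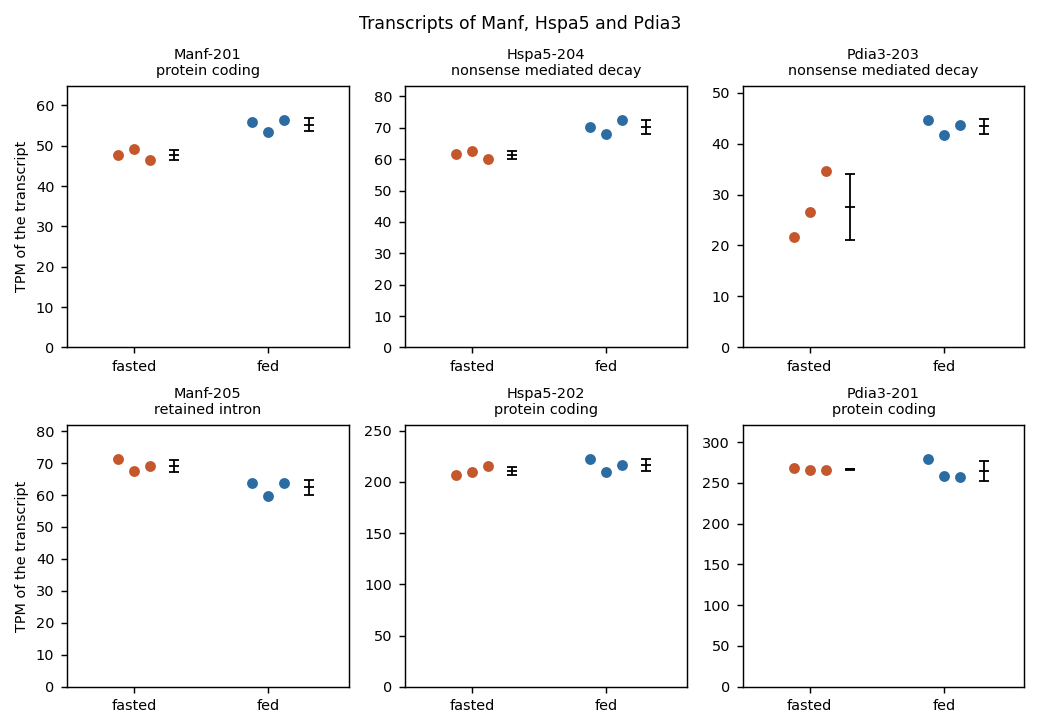
TPM of 2 transcripts each of Manf, Hspa5 and Pdia3 in each library, fasted left and fed right, with the mean and SD (n = 3) in black; y axes start at 0. The top row shows the transcripts lower in fasted libraries (Manf-201, Hspa5-204 and Pdia3-203), and the bottom row Manf-205, which was higher, and the coding Hspa5-202 and Pdia3-201, which overlapped.

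Other genes carried part of the difference in single transcripts. Hsph1-201 was at 66.9, 72.1 and 56.4 TPM in fasted and 86.2, 86.3 and 70.4 TPM in fed libraries, Chordc1-208 at 12.2, 8.11 and 9.90 TPM in fasted against 16.3, 18.5 and 12.8 TPM in fed libraries, and Cryab-205 at 156, 127 and 133 TPM in fasted against 152, 196 and 162 TPM in fed libraries, while Cryab-201 was at 140.3, 139.7 and 154 TPM in fasted against 141, 151 and 141 TPM in fed libraries. Chordc1-208 did not overlap between diets (log2 fold change -0.61 with a standard error of 0.18, adjusted p = 0.66 in limma), and only 23 of its words are its own. For Hyou1, Hyou1-201 was at 31.03, 33.4 and 32.6 TPM in fasted and 29.1, 29.9 and 29.9 TPM in fed libraries and did not overlap. The 2 main transcripts of Pdia6 lay in opposite directions. That holding 67.0% of the gene was wholly lower, at 58.6, 57.1 and 73.4 TPM in fasted against 74.3, 74.7 and 79.3 TPM in fed libraries. That holding 27.9% had a higher mean in fasted libraries and overlapped, at 34.0, 40.4 and 25.5 TPM in fasted against 33.4, 21.3 and 19.3 TPM in fed libraries. Hsp90b1-201 and Dnajb11-201 held 99.6% and 98.7% of their genes, so those sums rest on 1 transcript each. Calr-201 held 95.2% of its gene, at 268 ± 2.82 TPM in fasted and 284 ± 11.5 TPM in fed libraries (SD, n = 3 each). The retained-intron transcripts Calr-204 and Calr-203 were named after their values were seen. Calr-204 was at 9.61, 5.27 and 2.34 TPM in fasted against 24.1, 10.2 and 11.4 TPM in fed libraries with no overlap (log2 fold change -1.32 with a standard error of 0.49, adjusted p = 0.67 in limma). Calr-203 lay the other way, wholly higher, at 3.58, 4.07 and 2.04 TPM in fasted against 1.87, 1.26 and 1.88 TPM in fed libraries (log2 fold change 0.64 with a standard error of 0.24, adjusted p = 0.67 in limma). The lower sum of Calr thus lay in Calr-201 and Calr-204, with Calr-203 opposite.

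The rest of the folding machinery, in 7 further lists, and a list of immediate early genes had 0 genes past the adjusted threshold in either direction (limma). At an unadjusted p under 0.05 on TPM, 13 of the 144 tested genes of the 7 lists (9.03%) were higher and 2 (1.39%) lower, against 6.72% and 3.22% of all genes. Under the 4 other scalings each of the 7 lists had 0 to 1 higher and 0 to 4 lower at that threshold. Of all genes (15095 to 15236), 557 to 663 were higher and 650 to 756 lower there. Sensors and factors of the unfolded protein response had 8 of 14 higher and 6 lower (median 0.011), and 4 to 5 higher under the 4 other scalings, where the median was below 0. Ppp1r15b, which restarts translation by removing the phosphate from eIF2 alpha, was higher at 24.9 ± 0.480 TPM in fasted against 21.8 ± 0.755 TPM in fed libraries, and Creb3l1, an ER-bound factor, was lower at 11.97 ± 1.01 TPM in fasted against 13.3 ± 0.397 TPM in fed libraries (SD, n = 3 each). The sensor Atf6 was at 19.5 ± 0.410 TPM in fasted and 18.8 ± 0.509 TPM in fed libraries and Atf4 at 149.7 ± 3.91 TPM (fasted) and 156 ± 9.002 TPM (fed), and both overlapped.

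Among 31 other ER folding enzymes, 21 were higher and 10 lower (median 0.034), with 7 wholly higher and 1 wholly lower on TPM, where 12.7% and 5.07% of all genes were. Under the 4 other scalings 2 to 3 were wholly higher and 1 to 3 wholly lower. Sil1, another nucleotide exchange factor of BiP, was at 36.9 ± 4.35 TPM in fasted and 30.9 ± 1.92 TPM in fed libraries, and Selenof, an ER selenoprotein, at 381 ± 14.95 TPM (fasted) and 354 ± 2.40 TPM (fed) (SD, n = 3 each). The collagen chaperone gene Serpinh1 (HSP47) was the one wholly lower, at 64.9 ± 3.69 TPM in fasted and 77.2 ± 6.53 TPM in fed libraries; fibroblasts make it, and of 9 fibroblast markers 5 were higher and 4 lower, with a lower sum in fasted libraries. Dnajc1, an ER Hsp40, was at 6.58 ± 1.075 TPM (fasted) and 7.64 ± 0.747 TPM (fed). In 24 tested genes of ER degradation and translocation, 18 were higher and 6 lower (median 0.054), with 7 wholly higher and 0 wholly lower on TPM, beside the same 12.7% and 5.07% of all genes, and 4 to 6 wholly higher and 1 to 2 wholly lower under the other scalings. Ube2j1, the ER ubiquitin-conjugating enzyme, was at 165 ± 3.66 TPM in fasted against 154 ± 3.70 TPM in fed libraries and Nploc4, a cofactor of the segregase VCP, at 73.4 ± 1.25 TPM in fasted against 68.4 ± 2.28 TPM in fed libraries. Ube2g2 (57.2 ± 0.347 TPM (fasted) and 60.3 ± 4.02 TPM (fed)) and Selenos (48.1 ± 1.02 TPM (fasted) and 49.5 ± 1.67 TPM (fed)) had the smallest p among the lower genes and overlapped. Under the other scalings 13 to 15 of the 24 and 17 to 18 of the 31 were higher. How these lists differ from the ER folding members was not tested.

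On the cytosolic side, heat shock factors and other cochaperones had 15 of 25 higher on TPM (median 0.038) and 12 to 13 under the other scalings. Ahsa2, a relative of the Hsp90 activator AHA1, was wholly lower at 64.9 ± 1.82 TPM in fasted and 74.9 ± 3.34 TPM in fed libraries (log2 fold change -0.20 with a standard error of 0.046, adjusted p = 0.42 in limma). Unc45a, a cochaperone of Hsp90 and myosin, was wholly higher at 68.1 ± 2.21 TPM in fasted and 60.6 ± 1.36 TPM in fed libraries (log2 fold change 0.17 with a standard error of 0.041, adjusted p = 0.42 in limma). Bag4 was at 19.1 ± 0.945 TPM in fasted and 17.2 ± 0.638 TPM in fed libraries, and Bag2 at 27.6 ± 2.51 TPM (fasted) and 31.9 ± 3.12 TPM (fed); both regulate Hsp70.

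Other cytosolic Hsp70, Hsp40 and small Hsp genes were higher in 17 of 21 on TPM (median 0.025) and in 9 to 11 under the other scalings. Among the higher, Dnaja2 was at 199 ± 8.26 TPM in fasted and 181 ± 8.98 TPM in fed libraries, and Hspa14 at 33.8 ± 1.25 TPM (fasted) and 31.1 ± 1.65 TPM (fed). Among the lower, Hspb7, a small Hsp gene of muscle, was at 0.557, 0.846 and 1.01 TPM in fasted and 1.07, 3.49 and 1.17 TPM in fed libraries, highest in fed library 2 with its muscle marker RNA, and Dnajb5 at 13.8 ± 0.558 TPM (fasted) and 15.5 ± 1.67 TPM (fed). The TRiC chaperonin, which folds actin and tubulin, and its partner prefoldin were higher in 12 of 14 on TPM (median 0.043) and in 10 under the other scalings. Its subunit gene Cct3 was at 249 ± 10.01 TPM in fasted and 229.8 ± 11.8 TPM in fed libraries and Cct4 at 158 ± 3.18 TPM (fasted) and 149.6 ± 4.89 TPM (fed), while the prefoldin genes Pfdn5 and Pfdn6, the 2 lower ones, were at 202 ± 2.07 TPM (fasted) and 208 ± 5.53 TPM (fed) and at 111 ± 4.90 TPM (fasted) and 112 ± 9.36 TPM (fed).

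Mitochondrial chaperones and proteases other than the chaperonin were higher in 11 of 15 on TPM (median 0.056) and in 9 to 10 under the other scalings. The proteases Yme1l1 and Clpx were wholly higher, Yme1l1 at 76.9 ± 1.75 TPM in fasted and 71.4 ± 1.73 TPM in fed libraries and Clpx at 32.3 ± 0.614 TPM (fasted) and 29.8 ± 0.623 TPM (fed). Dnajc15 and the protease gene Htra2 overlapped, with means of 29.2 ± 3.07 and 37.7 ± 0.621 TPM in fasted against 31.1 ± 2.24 and 38.9 ± 3.16 TPM in fed libraries. These shares stand beside 62.5% of all tested genes higher in fasted libraries on TPM and 52.9% under median-of-ratios scaling. Immediate early genes, which tissue handling can induce, were higher in 10 of 14 on every scaling tried. Egr3 was at 5.52 ± 0.0963 TPM in fasted and 3.07 ± 0.829 TPM in fed libraries and Jun at 70.3 ± 1.336 TPM (fasted) and 64.1 ± 2.07 TPM (fed), and among the 4 lower genes Atf3 was at 6.92 ± 1.02 TPM (fasted) and 12.4 ± 5.93 TPM (fed) and Ier2 at 6.36 ± 0.466 TPM (fasted) and 7.16 ± 0.251 TPM (fed).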

How the data were processed

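The authors deposited TPM per transcript: 140992 transcripts in 6 libraries, each summing to 1000000. The submitters' processing notes list DESeq2 1.34.0, Salmon 1.6.0, Trim Galore 0.6.6 and FastQC 0.11.9, with the builds GRCm38 and mm10; the role of each and the annotation release are not given in the sources used here. Libraries came from a stranded mRNA kit, per the labels' protocols. TPM keeps no depth, so the counts behind a value are unknown, no count test could be used, and precision rests on 3 libraries a group. Transcripts of 1 symbol were added up, genes averaging 1 TPM or more over the 6 libraries were kept, and log2(TPM + 1) was compared between diets with limma 3.58.1 in R 4.3.3 (diet as the only term, intensity trend, two-sided, Benjamini-Hochberg adjustment over all genes or all transcripts, threshold 0.05), after the fit was tested on simulated data. A fold change on this scale understates low genes.

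The members and lists were chosen with earlier results of these data known, so no p over the members is given; groups of genes are described by counts and medians beside the same over all genes. "Wholly lower" or "wholly higher" means that the values of both diets do not overlap. All members are named; of the other lists, the 2 genes with the smallest p in each direction are named. Of the transcripts, those holding at least 5% of a gene could be named, and Calr-203 and Calr-204, which hold less, were added after their values were seen. Positions, transcript types and shared 31-base words came from GENCODE release M21 (GRCm38), which has 98.7% of the deposited transcript versions; 3 member transcripts are not among them. Promoters came from RefSeq (GRCm38.p6). No label ties replicate numbers to a litter, batch or day, so the diets were compared unpaired. Alternatives were other pseudocounts, filters, scalings and variance settings, a replicate block, the most abundant transcript alone, and each library left out. Python 3.11.15 and matplotlib 3.10.9 drew the figures.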

Additional observations from a re-analysis of the deposited data

How the results depend on the processing

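Over 19 alternatives, no chaperone passed an adjusted p of 0.05 in limma, and the smallest adjusted p among the 35 ran from 0.29 to 0.72. Of the 9 wholly lower genes, 8 stayed so under TMM-type scaling, 9 under each of the 3 other scalings and 7 with the most abundant transcript alone. The remaining alternatives could not make separated groups overlap, since they keep the order of the values or only drop a library. Signs changed under some setting in up to 10 genes, none of them among the 12 without overlap. For those 12 a sign could change only under the scalings or with the most abundant transcript alone. Lower genes at an unadjusted p under 0.05 (6) numbered 7 under TMM-type scaling, 9 under each of the 3 other scalings, 3 with no trend and 2 to 6 without single libraries. Of all genes, 486 were lower at that threshold in the main fit and 650 to 756 under the 4 scalings. With no trend 525 were, and without single libraries 382 to 610. Higher ones (1) numbered 2 with no filter, 3 with the most abundant transcript alone, 0 with no trend, with the replicate block and under each of the 4 scalings, and 0 to 1 without single libraries. Of all genes, 1015 were higher at that threshold in the main fit, 1281 of 29760 with no filter and 971 of 14609 with the most abundant transcript alone. With no trend 821 were, with the replicate block 1159, under the 4 scalings 557 to 663, and without single libraries 594 to 1190. Wholly higher genes (3) numbered 0 under quantile normalization, 1 without mitochondrially encoded genes and 3 to 6 without single libraries. Of all 15097 genes, 1922 were wholly higher with all libraries and 2524 to 3403 without single libraries. The ER folding median (-0.060) was -0.095 under quantile normalization. The cytosolic median (0.0015) was -0.034 under quantile normalization, -0.031 without mitochondrially encoded genes and -0.033 to 0.039 without single libraries, and the ER minus cytosolic median ran from -0.060 to 0.0032. Of member transcripts at an unadjusted p under 0.05, the higher (3) numbered 5 with no filter and 1 to 4 without single libraries, and the lower (14) numbered 8 to 14. In the main fit 4.49% of all transcripts were higher and 2.71% lower, and these shares are not given here for the other settings. The cause of these shifts was not tested. With replicate number as a block, 5 of the 35 genes were lower at an unadjusted p under 0.05, as were 565 of all 15097 genes. Deviations of same-numbered libraries correlated at 0.093, 0.11 and 0.066, each library's best match being its own number, which is a hint from the data and not the design. With TPM alone, depth sets an unknown limit on the low genes.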
